A study of Homo sapiens with 16 samples.

Results

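The DNA damage checkpoint genes described here are ATM, ATR, CHEK1, CHEK2, TP53BP1, MDC1, RNF8, RNF168, RAD9A and CLSPN. They were listed by name for their role in the pathway, with no measured value in the rule, though earlier results of these data were known. They are 10 of the 60605 gene identifiers in the count tables. All 10 were matched by symbol and all 10 passed the filter on low counts in every comparison. PRO-seq, which labels the RNA that polymerases are making at the moment of the run-on, was used to read their transcription in LNCaP, an established androgen-responsive human prostate cancer cell line. The question in the series' own title is whether the androgen receptor regulates transcription of DNA damage response genes, and it was approached with enzalutamide, a drug that blocks the receptor, and with 6 Gy of ionizing radiation (IR). Batch 2 held 4 groups of 2 replicates: DMSO vehicle for 90 min, vehicle with 6 Gy given after 30 min and collection 60 min later, 10 µM enzalutamide for 90 min, and enzalutamide with 6 Gy on the same schedule. Batch 1 held 2 groups of 2 replicates, labelled only as mock and as irradiated with 6 Gy, each replicate sequenced as libraries t1 and t2, whose counts were summed. The labels give no drug, vehicle or time for batch 1 and leave t1 and t2 unexplained. Nothing says that replicates came from separate cultures, so p-values measure the spread between these samples, which may be technical.

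Double-strand breaks activate the kinase ATM, and stretches of single-stranded DNA activate its relative ATR. Mediator proteins hold these kinases and their substrates together on damaged chromatin, and the effector kinases CHEK2 and CHEK1 carry the signal to the CDC25 phosphatases and to p53, which hold back the cell cycle. Most of this wiring works through phosphorylation and ubiquitylation of proteins already present, and the assay used here reads only the transcription of their genes.

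Replicates held between 8022989 and 16851473 counts in batch 1 after summing and between 10494563 and 19905824 in batch 2. Check genes were read against the labels: CDKN1A, the p53 target that encodes the inhibitor p21, was between 38.2 and 57.4 CPM (counts scaled to library size) in the 4 mock libraries of batch 1 and between 541 and 605 in the 4 irradiated ones. ZBTB16, an androgen receptor target, fell with enzalutamide (log2 fold change -0.83, edgeR adjusted p 1.91e-05). So did TMPRSS2 (-0.58, edgeR adjusted p 0.00123), while FKBP5, a further receptor check, did not pass (-0.26, edgeR adjusted p 0.22). The 9 luminal prostate markers summed to between 2645 and 3449 CPM in every replicate and the 10 markers of other cells to between 21.6 and 43.1 CPM, with CHGA at 0 in every library. KLK3, which encodes the prostate-specific antigen, stood at 183.5 and 181.3 CPM in mock against 16.7 and 13.2 in vehicle, so the 2 batches differ in more than the checkpoint genes, and batch and treatment label cannot be told apart.

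After 6 Gy, 2 of the 10 checkpoint genes rose and none fell when the 3 arms (batch 1, vehicle and enzalutamide) were tested together, with 6 irradiated against 6 unirradiated replicates and a term for each arm. CLSPN rose 1.19-fold and RAD9A 1.17-fold, both from the ATR branch, while ATM and ATR themselves and CHEK2 did not pass the test and had fold changes between 0.99 and 1.04. Neither of the 2 calls survived every removal of a replicate, and neither gene passed with t2 as the libraries of batch 1. In the same test 7.6% of 29470 genes were called, 5.16% as higher and 2.44% as lower, so the 2 of 10 is given as a count and was not tested as a property of the group. In bulk libraries, more cells transcribing a gene and more polymerase per cell cannot be told apart. The fold changes of 9 of the 10 were above 0, as were those of 51.1% of all genes, and their median log2 fold change was 0.15 beside 0.0055 for all genes tested. With enzalutamide none of the 10 passed the test. Replicate numbers are shared by the groups of a batch, though whether they pair the samples was not tested. With the number as a block, CHEK1 and RNF8 passed as well after IR (4 of the 10), and CLSPN passed with enzalutamide. Every 95% interval of the radiation effect over the 3 arms, and of the averaged enzalutamide effect, lay within a 1.5-fold change in either direction.

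**Figure D1:**
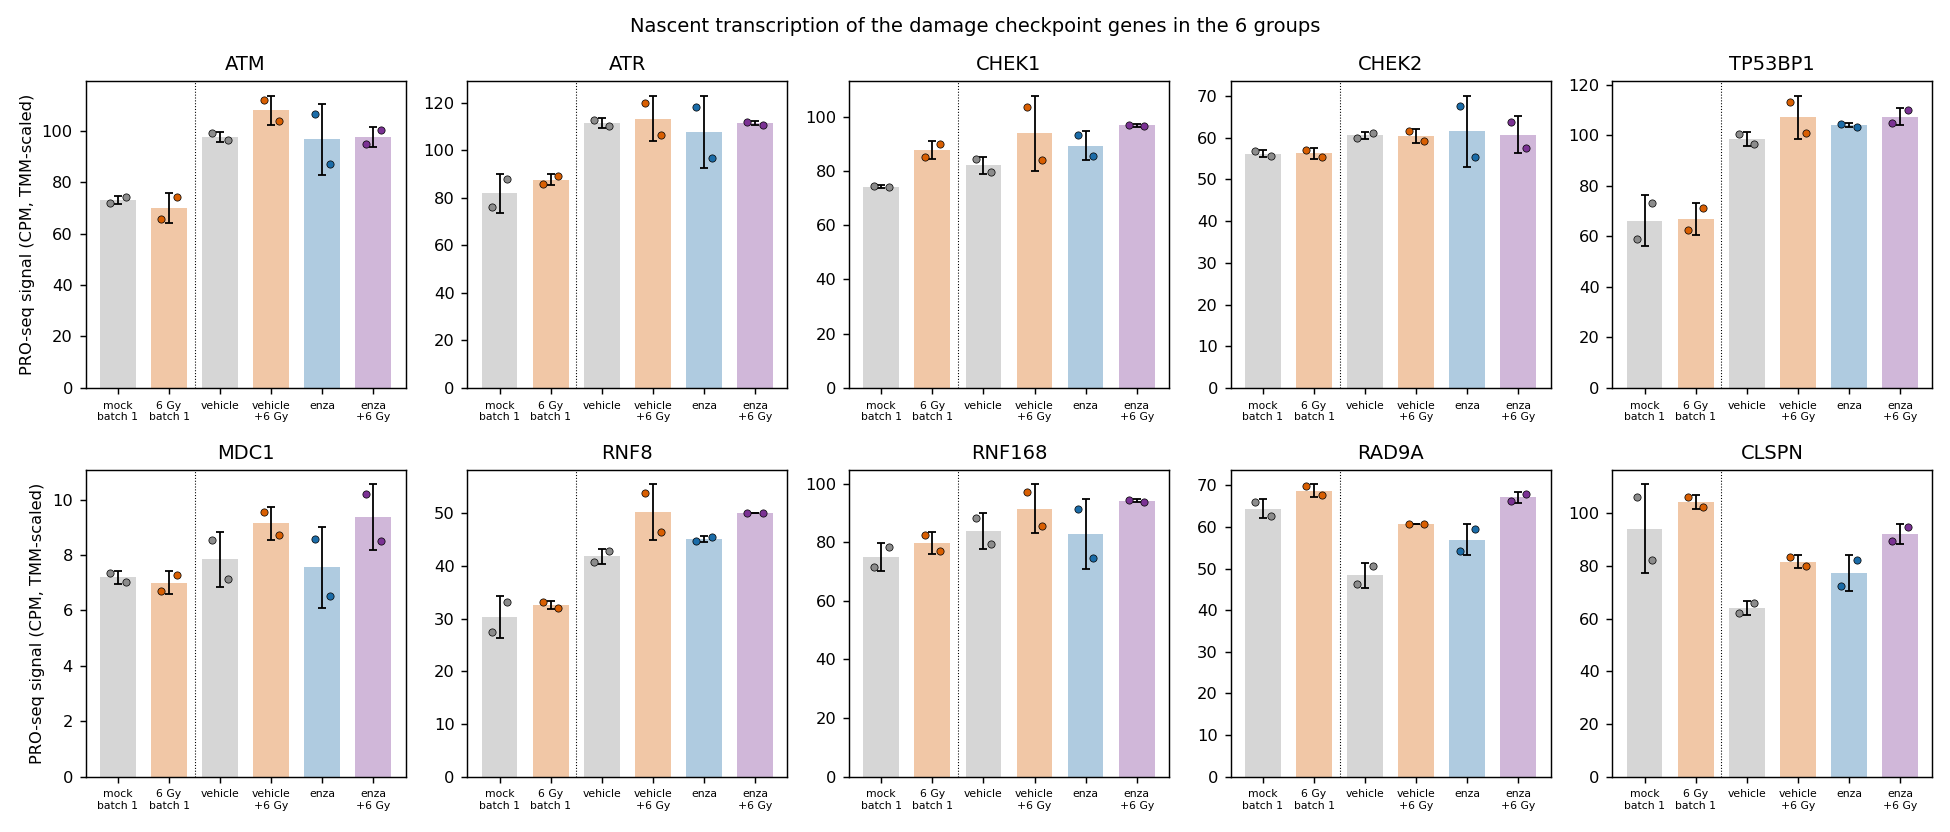
Transcription of each checkpoint gene in CPM (TMM-scaled, vertical axis from 0) in the 6 groups; bars are means of 2 replicates, error bars the SD and points the replicates, with batch 1 left of the dotted line. In each arm of batch 2 the irradiated replicates of RAD9A (60.8 to 68.1 CPM) and CLSPN (79.9 to 94.8 CPM) stand above their own controls, while CHEK2 stays between 55.4 and 67.6 CPM throughout.

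The apical kinases ATM and ATR did not pass the test in any arm. ATM (146 kb on chromosome 11, positions 108223067 to 108369102 of GRCh38.p14) had 71.9 and 74.2 CPM in mock and 65.7 and 74.2 in irradiated cells of batch 1. In batch 2 it had 99.2 and 96.4 CPM with vehicle, 112 and 104 with vehicle and IR, 106.4 and 86.9 with enzalutamide, and 94.9 and 100.4 with both. Irradiated values lay above their controls only in the vehicle arm. The effect over the 3 arms was a log2 fold change of 0.03 (95% interval -0.09 to 0.16, SE 0.0616, edgeR adjusted p 0.785). C11orf65 lies on the opposite strand over 41.5% of ATM, and since the use of strand in the counting is not given in the sources used here, reads of the pair cannot be told apart; C11orf65 itself had a log2 fold change of -0.13 (adjusted p 0.212).

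ATR (129.5 kb on chromosome 3, 142449235 to 142578733) had 76.2 and 87.8 CPM in mock and 85.9 and 89.2 in irradiated cells of batch 1. Its batch 2 values were 112.9 and 110.2 CPM with vehicle, 120.0 and 106.6 after vehicle and IR, 118.4 and 96.9 with enzalutamide, and 112 and 110.7 with both. Irradiated and control replicates overlapped in all 3 arms. The log2 fold change over the arms was 0.05 (95% interval -0.07 to 0.18, adjusted p 0.646).

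The chromatin branch begins with MDC1, the reader of phosphorylated H2AX that docks further factors, and runs through the ubiquitin ligases RNF8 and RNF168 to TP53BP1, which binds the ubiquitylated nucleosome and favours end joining. MDC1 had the lowest CPM of the 10, between 6.52 and 10.2, which is 58 to 169 counts per replicate. Its 95% interval was accordingly the widest, -0.05 to 0.39 around a log2 fold change of 0.17 (adjusted p 0.345). The lncRNA gene MDC1-AS1 covers 57.9% of its span on the opposite strand and had 0 CPM in every replicate. The use of strand in the counting is not given, and how reads over this overlap were counted was not tested. TP53BP1 ranged from 59.1 to 73.4 CPM in batch 1 and from 96.6 to 113.2 in batch 2, with a log2 fold change of 0.06 (adjusted p 0.585).

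RNF8 had 27.5 and 33.2 CPM in mock, 33.2 and 32.1 after IR in batch 1, 40.9 and 42.9 with vehicle, 53.9 and 46.4 with vehicle and IR, 44.7 and 45.5 with enzalutamide, and 50.03 ± 0.0415 (SD, n = 2) with enzalutamide and IR. In batch 2 all 4 irradiated replicates were above all 4 unirradiated ones, and in batch 1 they overlapped. The log2 fold change over the arms was 0.18 (SE 0.0627, edgeR adjusted p 0.0938), and with the replicate number as a block it passed (0.18, adjusted p 0.042). RNF168 did not pass in either fit, with 71.6 to 97.4 CPM over all replicates and a log2 fold change of 0.13 (adjusted p 0.205).

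The ATR branch holds both genes that rose. RAD9A encodes a subunit of the ring-shaped 9-1-1 clamp that is loaded at damage and lets TOPBP1 stimulate ATR, and CLSPN encodes claspin, the adaptor through which ATR reaches CHEK1. Their promoters are printed with those of ATM and ATR, which did not pass, to set the called genes beside the apical kinases. Each runs 5′ to 3′ along the gene's own strand from 250 bases before to 10 bases into the RefSeq start given for GRCh38.p14, at chr1:35769969-35770228 (minus strand) for CLSPN, chr11:67391736-67391995 (plus) for RAD9A, chr11:108222817-108223076 (plus) for ATM and chr3:142578724-142578983 (minus) for ATR. Capitals mark matches, on either strand, to the CCAAT box (CCAAT), the E-box core (CACGTG), the E2F words TTTCCCGC, TTTGGCGC, TTTCGCGC and TTTGCCGC, and the word TTTGAA of the cell cycle homology region; these words were picked after the sequences had been seen, and no marked matches overlap.
CLSPN: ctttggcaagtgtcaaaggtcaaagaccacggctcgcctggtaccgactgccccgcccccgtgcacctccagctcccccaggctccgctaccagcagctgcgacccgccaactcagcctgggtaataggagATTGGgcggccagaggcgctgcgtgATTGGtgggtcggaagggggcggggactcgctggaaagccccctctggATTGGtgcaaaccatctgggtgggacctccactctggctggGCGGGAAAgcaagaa
RAD9A: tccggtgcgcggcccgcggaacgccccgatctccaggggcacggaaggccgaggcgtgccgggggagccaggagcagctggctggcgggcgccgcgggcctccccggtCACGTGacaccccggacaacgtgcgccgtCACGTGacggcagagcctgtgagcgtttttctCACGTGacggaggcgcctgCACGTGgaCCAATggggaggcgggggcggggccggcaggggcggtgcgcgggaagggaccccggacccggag
ATM: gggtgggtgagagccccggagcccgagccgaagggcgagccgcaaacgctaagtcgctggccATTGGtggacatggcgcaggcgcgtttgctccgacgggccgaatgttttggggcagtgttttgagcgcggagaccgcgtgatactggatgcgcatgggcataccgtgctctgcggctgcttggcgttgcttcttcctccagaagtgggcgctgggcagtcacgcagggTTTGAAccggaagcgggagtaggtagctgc
ATR: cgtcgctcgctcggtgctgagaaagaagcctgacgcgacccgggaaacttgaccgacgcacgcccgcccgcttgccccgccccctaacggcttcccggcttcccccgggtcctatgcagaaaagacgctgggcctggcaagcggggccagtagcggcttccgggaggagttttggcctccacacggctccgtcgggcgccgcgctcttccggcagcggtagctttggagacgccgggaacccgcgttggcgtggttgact

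The CLSPN promoter holds 3 CCAAT boxes, read as ATTGG on this strand and beginning at -119, -94 and -46 from the start, and 1 E2F word at -5. Of 27305 promoters of the same length, 3.19% have at least 3 CCAAT boxes and 2.91% have at least 1 of the E2F words. The RAD9A promoter holds 4 E-boxes at -142, -113, -81 and -62 and a CCAAT box at -54. At least 1 E-box occurs in 6.75% of promoters, and at least 4 in 0.0183%, or 5 promoters. ATM has 1 CCAAT box (33.7% of promoters have at least 1) and 1 TTTGAA (14.1%), and ATR has none of these words. The CCAAT count does not separate called from uncalled genes: CHEK2, with a radiation effect of -0.0086, also has 3 and MDC1 has 2, and neither passed. The words and the cutoffs were taken from these same promoters, so the shares describe them and test nothing. Such matches are letters in a window, and the data hold no measure of what binds there.

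CLSPN (49.8 kb on chromosome 1) had 106.1 and 82.3 CPM in mock and 106.4 and 102.5 in irradiated cells of batch 1. In batch 2 it had 62.2 and 65.9 CPM with vehicle and 83.5 and 79.9 with vehicle and IR. With enzalutamide it had 72.5 and 82.2 CPM, and 89.3 and 94.8 when IR was added. The irradiated replicates stood apart from their controls in both arms of batch 2 and overlapped in batch 1, where 1 mock replicate was as high as the irradiated ones. Over the 3 arms the log2 fold change was 0.25 (95% interval 0.12 to 0.39, SE 0.0642, edgeR adjusted p 0.0177), and in batch 2 alone, where 4.71% of genes were called, it was 0.27 (adjusted p 0.0269). With t2 as the libraries of batch 1 it was -0.061 (adjusted p 0.814), and with scaling by total counts the adjusted p was 0.0546.

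RAD9A (6.4 kb on chromosome 11, the shortest of the 10) had 66.0 and 62.8 CPM in mock and 69.8 and 67.6 in irradiated cells of batch 1. In batch 2 it had 46.3 and 50.5 CPM with vehicle, 60.8 in both replicates with vehicle and IR, 54.3 and 59.5 with enzalutamide, and 66.3 and 68.1 with both. It was the one member of the 10 whose irradiated replicates were above their controls in all 3 arms, which held for 5.85% of all genes. In batch 1 this order held for the sums and for t1. In t2 the irradiated libraries (66.4 and 60.9 CPM) lay below the mock ones (67.1 and 69.6). The log2 fold change over the 3 arms was 0.22 (95% interval 0.10 to 0.34, SE 0.0565, edgeR adjusted p 0.0176). It was 0.25 in batch 2 alone (adjusted p 0.0368), 0.14 with t2 as the libraries of batch 1 (adjusted p 0.262) and 0.19 without the filter on low counts (adjusted p 0.0836). PPP1CA, a phosphatase gene that overlaps the RAD9A span by 230 bp (3.58%), rose by a similar amount (log2 fold change 0.20, SE 0.0567, edgeR adjusted p 0.0304), and its part in the RAD9A value was not tested.

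Neither call survived every removal of a replicate. Leaving out mock 2, irradiated 1 of batch 1, vehicle 3, vehicle with IR 3 or 4, or enzalutamide with IR 3 or 4 each took both genes above the threshold, with edgeR adjusted p-values between 0.0549 and 0.113 for CLSPN and between 0.0518 and 0.116 for RAD9A. The log2 fold changes themselves stayed between 0.18 and 0.28 for CLSPN and between 0.17 and 0.23 for RAD9A over all 12 removals.

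Of the effector kinases, CHEK1 carries the ATR signal and CHEK2 the ATM signal. CHEK1 had 74.5 and 73.9 CPM in mock and 85.2 and 90.1 after IR in batch 1, and 84.3 and 79.7 with vehicle against 103.7 and 84.0 after vehicle and IR. With enzalutamide it had 93.2 and 85.5 CPM against 97.1 and 96.5 with IR added. The irradiated replicates were above their controls in batch 1 and in the enzalutamide arm and overlapped with them in the vehicle arm. The log2 fold change over the arms was 0.18 (SE 0.0587, edgeR adjusted p 0.0637); the replicate block gave 0.18 with an adjusted p of 0.0128. CHEK2 was the steadiest of the 10 in batch 1, between 55.4 and 57.2 CPM, and had a log2 fold change of -0.0086 (95% interval -0.13 to 0.11, adjusted p 0.95). With the block, 4 of the 10 genes passed (CLSPN, RAD9A, CHEK1 and RNF8), beside 14.3% of all genes.

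**Figure D2:**
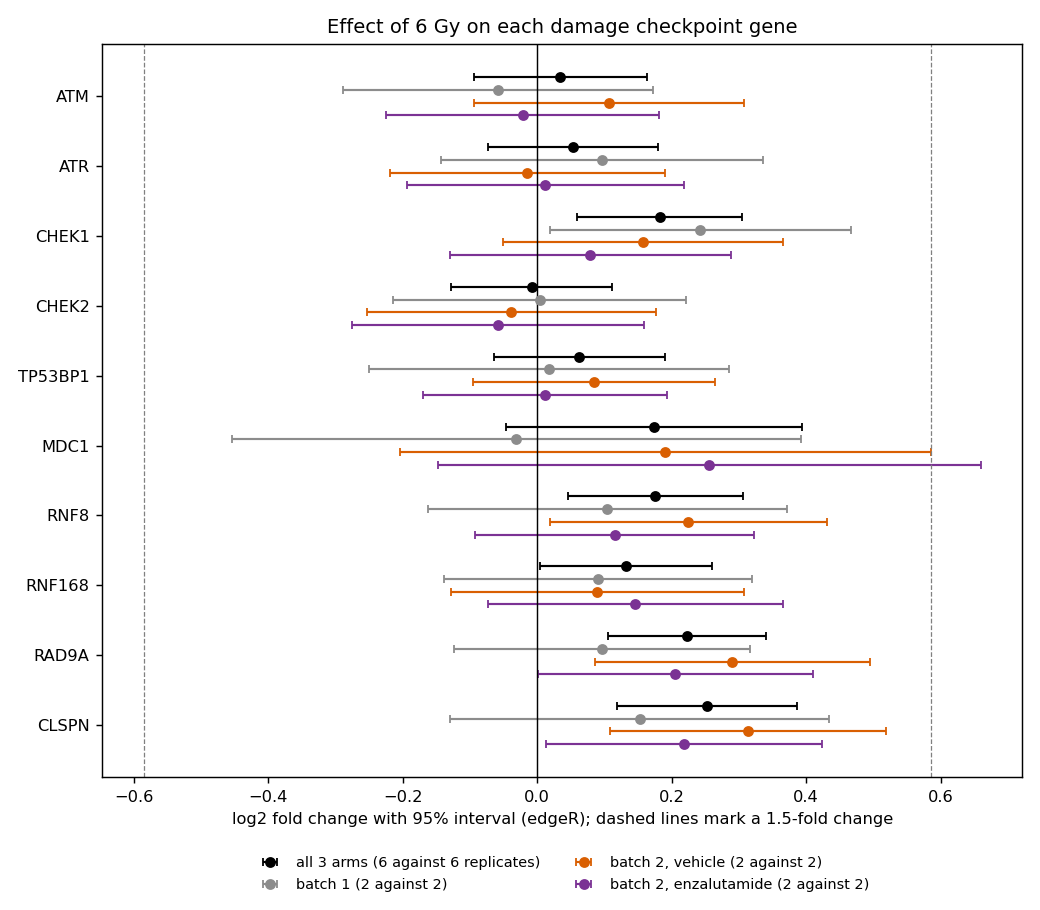
Effect of 6 Gy on each checkpoint gene as a log2 fold change (horizontal axis) with 95% interval from edgeR, over all 3 arms and in each arm; dashed lines mark a 1.5-fold change. The intervals over all arms (black) lie above 0 for CHEK1, RNF8, RNF168, RAD9A and CLSPN and cross 0 for the other 5 genes, before adjustment for the genes tested.

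Arm by arm, with 2 replicates against 2, none of the 10 passed by edgeR or DESeq2. In vehicle cells of batch 2, where 1.1% of 28651 genes were called, CLSPN had a log2 fold change of 0.31 (SE 0.095, edgeR adjusted p 0.213) and RAD9A 0.29 (SE 0.0945, adjusted p 0.261). With the replicate block both passed, at adjusted p-values of 0.0123 for CLSPN and 0.0253 for RAD9A, beside 4.59% of all genes. In enzalutamide-treated cells, where 0.918% of genes were called, the values were 0.22 for CLSPN (adjusted p 0.49) and 0.21 for RAD9A (adjusted p 0.525). In batch 1, where 2.82% of 25889 genes were called, CLSPN had 0.15 and RAD9A 0.10, and CHEK1 had the largest value, 0.24 (adjusted p 0.375, and 0.0302 with the block, where 9.01% of genes were called). The 3 arms were compared directly as well: the radiation effect differed between batches for none of the 10 (0.106% of 29195 genes called, adjusted p at least 0.907). The interaction of enzalutamide with IR was called for none of the 10, nor for any of 28651 genes (0%) by edgeR or DESeq2, with 343 genes at an unadjusted p under 0.05.

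The libraries t1 and t2 of batch 1, taken separately, gave opposite radiation effects for several of these genes. CLSPN had 89.2 (t1) and 116.5 CPM (t2) in mock 1, 64.0 and 107.3 in mock 2, 125.7 and 70.6 in irradiated 1, and 156.6 and 59.7 in irradiated 2. Its t2 library was thus the higher of the pair in both mock replicates and the lower in both irradiated ones. The radiation effect on CLSPN was a log2 fold change of 0.90 in t1 libraries alone (edgeR adjusted p 0.00195) and -0.77 in t2 libraries alone (adjusted p 0.000145). ATM ran the other way, with -0.47 in t1 (adjusted p 0.0311) and 0.42 in t2 (adjusted p 0.0136). TP53BP1 likewise had -0.52 in t1 and 0.63 in t2, and ATR and CHEK1 rose in t2 alone by 0.60 and 0.76. These single-library fits called 17.3% of genes in t1 and 44.7% in t2, and 3 and 5 of the 10 respectively. Tested directly, the t2 to t1 ratio differed between irradiated and mock replicates for 5 of the 10, beside 42.6% of genes.

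RAD9A ranged from 57.4 to 75.9 CPM over the same 8 libraries. Its irradiated libraries were above mock in t1 and below mock in t2, and its radiation effect passed in neither. Over all genes, the median log2 ratio of t2 to t1 was 0.21 and 0.43 in the mock replicates for genes under 10 kb and -0.17 and -0.32 for genes over 100 kb, whereas in the irradiated replicates it was -0.32 and -0.52 for the short genes and 0.20 and 0.30 for the long ones. ATM, ATR and TP53BP1 are over 100 kb and had the signs of the long genes. Genes of 30 to 100 kb had medians of -0.07 and -0.19 in mock and 0.13 and 0.05 after IR. CHEK1 (56 kb) had the signs of that class, with -0.54 and -0.49 in mock and 0.59 and 0.35 after IR, and CLSPN (49.8 kb) had the opposite ones, with 0.40 and 0.75 in mock and -0.83 and -1.31 after IR. CDKN1A matched the label of every one of these libraries. What t1 and t2 are was not tested, and sums over both were used wherever a library is not named. They entered these sums in unequal shares, with 3438642 (t1) and 4584347 (t2) counts in mock 1 and 5633290 and 3583636 in mock 2. Irradiated 1 held 7625459 and 4993789, and irradiated 2 held 7488015 and 9363458. Batch 1 levels, their spread and the radiation effects that use them therefore also depend on this mix.

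**Figure D3:**
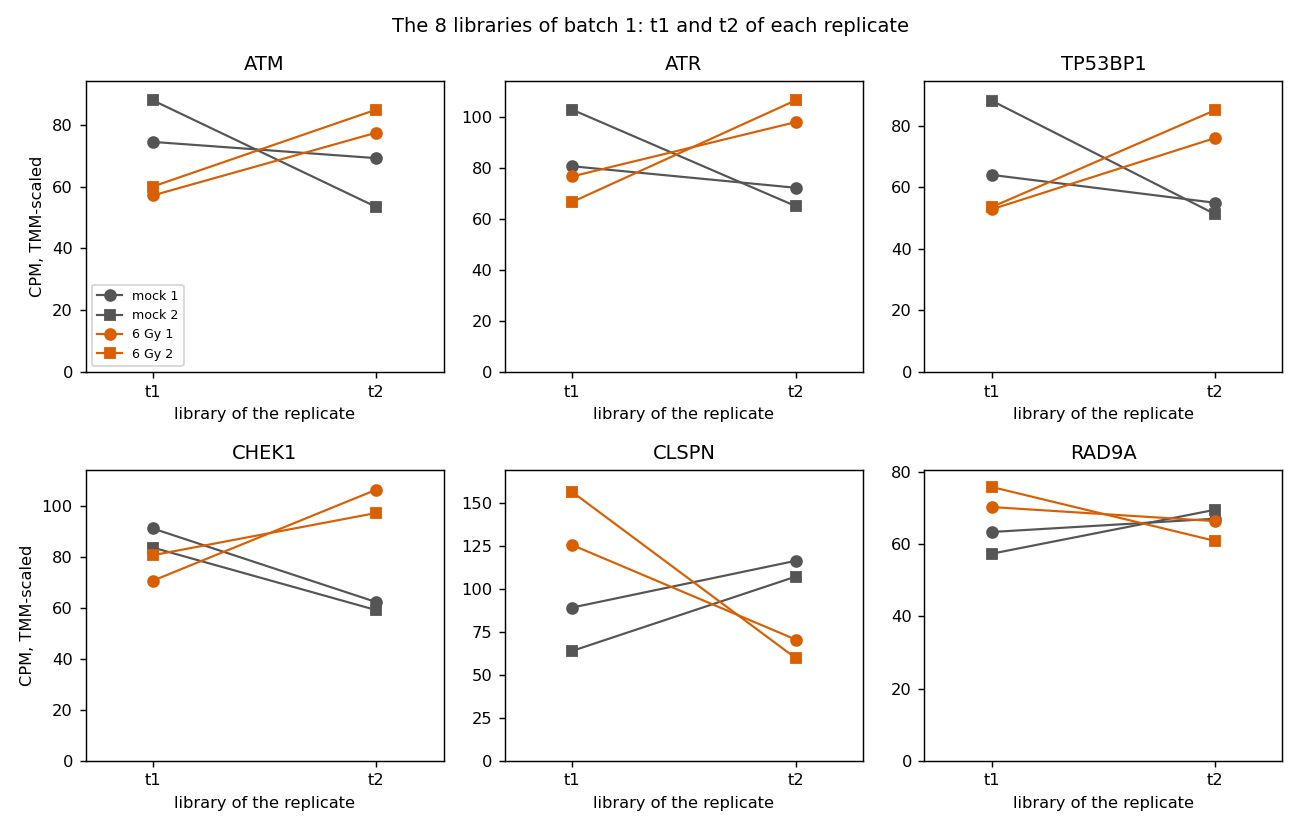
CPM (TMM-scaled, vertical axis from 0) of 6 checkpoint genes in the t1 and t2 libraries of each batch 1 replicate; lines join the libraries of 1 replicate, grey for mock and orange for 6 Gy. The lines cross between treatments: ATM, ATR, TP53BP1 and CHEK1 rise from t1 to t2 only after 6 Gy, and CLSPN only in mock.

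Enzalutamide, averaged over irradiated and unirradiated cells of batch 2 (4 against 4 replicates), called none of the 10 beside 0.0628% of 28651 genes, all 18 of them lower; 1780 genes (6.21%) had an unadjusted p under 0.05, among them CLSPN and RAD9A. DESeq2 also called none of the 10. The largest value among the checkpoint genes was that of CLSPN, 72.5 and 82.2 CPM against 62.2 and 65.9 without IR and 89.3 and 94.8 against 83.5 and 79.9 with IR. The drug-treated replicates were the higher in both comparisons. The averaged log2 fold change was 0.22 (95% interval 0.08 to 0.35, SE 0.0627, edgeR adjusted p 0.562), and the replicate block gave 0.21 with an adjusted p of 0.0391, beside 0.949% of genes called. RAD9A also had drug-treated replicates above vehicle with and without IR, with an averaged log2 fold change of 0.18 (adjusted p 0.722, and 0.105 with the block).

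Drug-treated replicates lay above vehicle without IR for CHEK1, TP53BP1, RNF8, RAD9A and CLSPN, 5 of the 10, beside 14.8% of all genes, and with IR for RAD9A and CLSPN, beside 16.5%. ATM with IR was the one case of the reverse order, 94.9 and 100.4 CPM with the drug against 112 and 104 without (log2 fold change -0.15, 95% interval -0.35 to 0.05). The other averaged effects were small: 0.08 for CHEK1, -0.08 for ATM, 0.05 for RNF8, -0.04 for ATR, 0.04 for TP53BP1, 0.01 for CHEK2 and RNF168, and -0.01 for MDC1, on the log2 scale. Without IR and with IR separately, 0.0105% of genes were called in each, and none of the 10, with adjusted p-values of 0.9999 throughout.

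**Figure D4:**
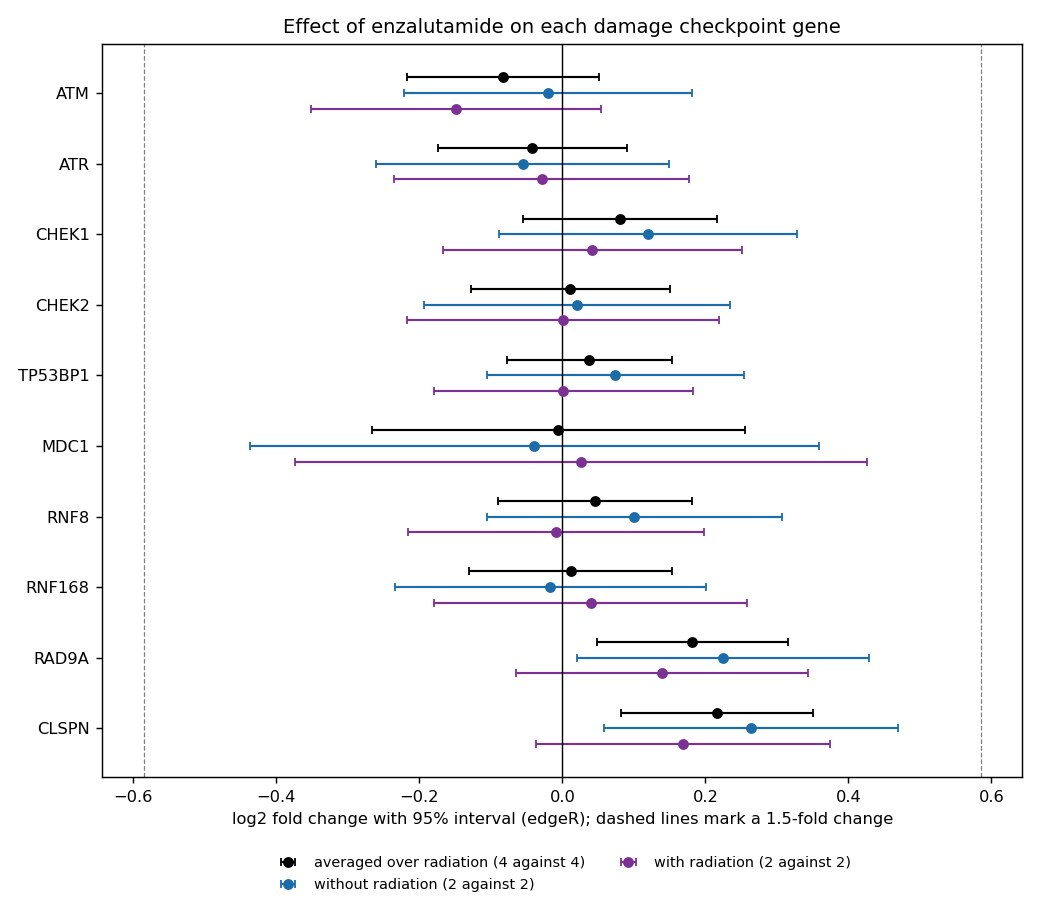
Effect of 10 µM enzalutamide on each checkpoint gene as a log2 fold change (horizontal axis) with 95% interval from edgeR, averaged over radiation and without and with it; dashed lines mark a 1.5-fold change. The averaged intervals (black) of RAD9A and CLSPN lie above 0 before adjustment, at 0.05 to 0.32 and 0.08 to 0.35, and all averaged intervals stay inside the dashed lines.

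The 10 genes differed widely in level. Per kb of RefSeq gene span, the mean over the 8 replicates of batch 2 was 9.08 CPM per kb for RAD9A (SD 1.16), 2.52 for RNF168, 1.62 for CHEK1, 1.58 for CLSPN, 1.15 for RNF8, 1.12 for CHEK2, 0.97 for TP53BP1, 0.857 for ATR, 0.685 for ATM and 0.485 for MDC1. RAD9A, RNF168 and MDC1 stood clear of their neighbours in this order. The order depends on the division by span: without it, RAD9A had a median of 61.8 CPM over all replicates, below ATM (95.7) and ATR (108.4). How the counts are spread along each gene was not tested, so the order is not a ranking of transcription rates. The ranges of CHEK1 and CLSPN overlapped, as did those of CLSPN and RNF8, of RNF8, CHEK2 and TP53BP1, of TP53BP1 and ATR, and of ATR and ATM. Between batches, the unirradiated level was 1.47 times as high in mock as in vehicle for CLSPN and 1.33 times for RAD9A, and 0.672 times for TP53BP1, 0.735 for ATR and 0.747 for ATM. C11orf65, which overlaps ATM, went the other way from ATM, with 74.28 and 68.35 CPM in mock against 38.49 and 37.22 in vehicle. How reads of this pair were assigned was not tested. Treatment label and batch cannot be told apart here.

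The wider pathway was read from lists of its known parts, which were chosen with earlier results of these data known. None of the 4 break sensing genes (MRE11, RAD50, NBN and KAT5) and none of the 12 genes of the 9-1-1 clamp and ATR activation, the direct partners of RAD9A, CLSPN and ATR, passed after IR, with medians of 0.05 and 0.05 on the log2 scale beside 0.0055 for all genes. The clamp partners of RAD9A had log2 fold changes of 0.09 (RAD1) and 0.02 (HUS1), the clamp-interacting RHNO1 had -0.19 (95% interval -0.32 to -0.06, adjusted p 0.0761), and the partners of claspin at the replication fork had 0.14 (TIMELESS) and 0.06 (TIPIN). In some removals of a replicate 1 gene of the clamp list was called lower. In the chromatin ubiquitin branch 2 of 20 rose, L3MBTL2 (0.21, adjusted p 0.0322) and PAXIP1 (0.19, adjusted p 0.0453), beside 5.16% of all genes called higher. That count was 0 or 1 whenever a replicate was left out and 0 with batch 2 alone.

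Downstream of the kinases the changes were larger. Of 12 checkpoint effectors, 2 rose and 7 fell, beside 5.16% of all genes called higher and 2.44% lower. Since the lists were chosen with earlier results known, such counts are given as a description only. PPM1D, a p53 target that encodes a phosphatase acting on ATM substrates, rose (log2 fold change 1.58, edgeR adjusted p 3.88e-11), as did PKMYT1, an inhibitory kinase of CDK1 (0.31). PLK1, the mitotic kinase that ends the checkpoint, fell by 1.13 and CCNB1, the mitotic cyclin, fell by 1.06 on the log2 scale, with CDC25C at -0.50, CDK1 at -0.44 and DBF4 at -0.44. CDC25B (-0.56) and WEE1 (-0.33) fell as well. WEE1 is also an inhibitory kinase of CDK1, so PKMYT1 and WEE1 moved in opposite directions. The count of 2 and 7 held in each removal of a replicate and in every other setting run except the replicate block, which gave 3 and 7. Of 18 G1/S genes of the E2F programme, which drives entry into DNA replication, 10 rose and none fell, beside the same 5.16% and 2.44% of all genes, with a median of 0.25: TYMS rose by 1.08, E2F1 by 0.45, CDT1 by 0.43, MCM5 by 0.31 and DTL by 0.29. This count was 4 to 11 when a replicate was left out, 6 with batch 2 alone (4.71% of all genes called) and 14 with the block (14.3%). Enzalutamide called none of the genes in these 5 lists.

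**Figure D5:**
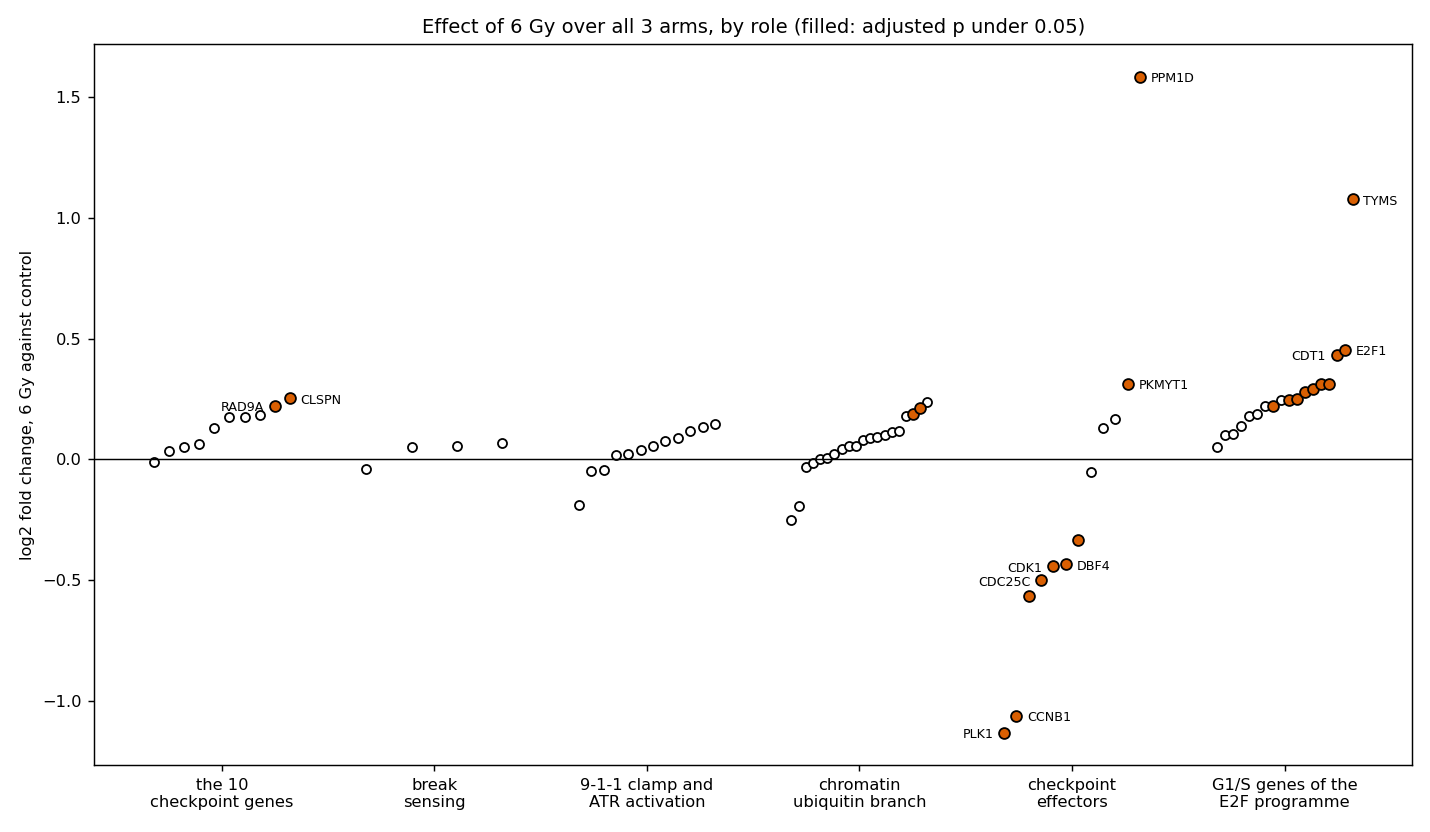
Log2 fold change after 6 Gy over all 3 arms (vertical axis) for the 10 checkpoint genes and 5 lists of pathway genes, each point 1 gene, in ascending order within a list; filled points passed an edgeR adjusted p of 0.05. The checkpoint genes lie between -0.01 and 0.25, while the effectors run from -1.13 (PLK1) to 1.58 (PPM1D).

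Several of the 10 share a start region with a gene on the opposite strand. NPAT starts 429 bp from ATM and had a log2 fold change of 0.09 after IR (adjusted p 0.431), HSCB starts 212 bp from CHEK2 with -0.02 (adjusted p 0.925), and MAP1A starts 314 bp from TP53BP1 with 0.20 (adjusted p 0.514). None of the 3 passed, nor did the checkpoint gene of the pair. Divergent lncRNA genes near CLSPN and CHEK1 were not analysed here.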

How the data were processed

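PRO-seq was measured in 16 libraries of LNCaP cells, 8 in each of 2 batches. The authors deposited 1 table of raw read counts per Ensembl gene for each batch, with 60605 identifiers, of which 60463 (99.8%) matched a name table. Per the submitters' processing notes, cutadapt 1.8.1, Bowtie2 2.4.4, SAMtools 1.9 and the build hg38 were used; the counting tool, the annotation and the use of strand are not given in the sources used here. CPM values are TMM-scaled over 12 replicates, with t1 and t2 of batch 1 summed.

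Tests were run in edgeR 4.0.16 (R 4.3.3; filterByExpr, TMM, glmQLFit, glmQLFTest, two-sided), adjusted by Benjamini-Hochberg over all genes tested, with a threshold of 0.05. Radiation over the 3 arms was fitted with a term per arm. SEs were derived from the log2 fold change and its F statistic. DESeq2 1.42.0, other scalings, no filter, t1 or t2 alone, batch 2 alone and leaving out each replicate were alternatives. The steps were tested on simulated data.

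Replicate numbers in the labels are shared by the groups of a batch. Deviations of same-numbered samples correlated at 0.102 to 0.262 across genes in the 6 group pairs of batch 2 and at 0.198 in batch 1. In batch 1 the unequal shares of t1 and t2 in the sums enter these deviations too. Whether the numbers pair the samples was not tested, and a fit with the number as a block is given where it changes a call.

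All 10 genes are reported whatever their values. From the pathway lists, those past the threshold after IR or with enzalutamide are named, at most 5 per list and direction by p, and divergent neighbours starting within 1 kb. RAD1, HUS1, RHNO1, TIMELESS, TIPIN, CDC25B, WEE1, FKBP5, PPP1CA and C11orf65 are named outside this rule, after their values were seen. The genes that followed CHEK1 and ATR most closely over the replicates are named by a fixed measure, the Pearson correlation; the same result for ATM and CLSPN is not reported here. The genes and lists were chosen with earlier results of these data known.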

Additional observations from a re-analysis of the deposited data

Results flagged for a closer look

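In batch 1, the ratio of the t2 to the t1 library differed between irradiated and mock replicates for 5 of the 10 checkpoint genes, in a test of that difference added after seeing the data (edgeR, 42.6% of 21976 genes called). On the log2 scale the difference, irradiated minus mock, was 0.92 for ATM (adjusted p 0.00398), 0.96 for ATR (adjusted p 0.00335), 0.99 for CHEK1 (adjusted p 0.00112), 1.14 for TP53BP1 (adjusted p 0.000905) and -1.65 for CLSPN (adjusted p 0.000104). For all 5, both irradiated replicates moved one way and both mock replicates the other. CHEK2, MDC1, RNF8, RNF168 and RAD9A did not pass, with differences between -0.35 and 0.43. Since the share of genes called is that large, the 5 of 10 is not particular to the checkpoint.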

How the results depend on the processing

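Of 1300 recomputed values of the 10 genes, 1140 kept their call and sign, 121 turned sign without a call in either fit, 19 lost a call and 15 gained one. The 5 that turned sign with a call all came from single libraries of batch 1: CLSPN over the 3 arms (-0.061) and in batch 1 (-0.77), ATM in batch 1 (0.42) and TP53BP1 in the difference between batches (0.54) with t2 alone, and TP53BP1 in batch 1 (-0.52) with t1 alone. The cause was not tested.

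With the replicate block, which pairs same-numbered samples, genes called numbered 4220 over the 3 arms (4 of the 10), 2332 in batch 1 (1), 1315 in vehicle (2), 951 in enzalutamide, 96 for the difference between batches, 272 for enzalutamide averaged (1), 55 without IR, 55 with IR and 1 for the interaction; beyond CLSPN, RAD9A, CHEK1 and RNF8 it changed no call among the 10. Without the filter on low counts, 1157 genes were called in batch 1, 624 in vehicle, 556 in enzalutamide, 119 for the difference, 230 for enzalutamide averaged, 74 without IR, 64 with IR and 32 for the interaction, and 1 of the 10 over the 3 arms. Scaling by total counts called 1 of the 10 over the 3 arms. DESeq2 called 58 genes for enzalutamide averaged, 13 without IR and 7 with IR.

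With t1 alone, 1433 genes were called over the 3 arms, 3995 in batch 1 (3 of the 10) and 452 for the difference; with t2 alone 1340 (0 of the 10), 9800 (5) and 5646 (4). Pairing mock t1 with irradiated t2 libraries, added after seeing the data, gave 1446 (0 of the 10), 445 and 10. The reverse pairing, mock t2 with irradiated t1 libraries, was also run, and its counts are not given here. Batch 2 alone called 1349.

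Leaving out each replicate in turn gave 1417 to 2110 genes over the 3 arms (0 to 3 of the 10), 587 to 1509 in batch 1, 161 to 511 in vehicle, 139 to 434 in enzalutamide, 21 to 45 for the difference, 7 to 36 for enzalutamide averaged, 0 to 4 for the interaction, 1 to 6 for enzalutamide with IR and 2 to 10 for it alone, with 0 of the 10 in these 8 comparisons. Depth limits MDC1 most, at 58 to 169 counts per replicate.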

Other observations

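The genes whose log2 CPM followed CHEK1 and ATR most closely over the 12 replicates, each centred on its batch, are given as a description; the points share libraries, depth and treatments. For CHEK1 they were ENSG00000263809 (Pearson r 0.968), SRGAP3, STT3A, PSMD12 and SNHG29, out of 18686 genes with a mean of at least 50 counts. For ATR they were RPRD1B (0.975), TMEM161B, ITFG1, MATR3 and STAM2. None of the 10 checkpoint genes was among the 5 closest of either.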
